A study of Mus musculus with 18 samples.

Results

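The comparison set testis of the adult mouse against testis of the mouse at postnatal day 7 (P7), across all 37820 probes of the deposited table. It used the 3 arrays titled Ad-1 to Ad-3 and the 3 titled P7-1 to P7-3, which make 6 of the 18 arrays of the series. The series profiled long non-coding RNAs (lncRNAs) and mRNAs together in whole testis at 6 stages with 3 arrays each, 2 of them fetal (E12.5 and E15.5) and 4 postnatal (P7, P14, P21 and adult). Both groups were frozen whole testis, and no label gives a strain, genotype, treatment or adult age. Each RNA sample was labelled with Cy3 and hybridised alone to a 1-colour Agilent array. The titles number the arrays of a stage 1 to 3, and whether each came from another animal is not labelled, so p-values measure only the spread between arrays, which may be technical.

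As background, the seminiferous cords of the mouse at P7 hold Sertoli cells and spermatogonia, before any germ cell has entered meiotic prophase. In the adult the tubules hold every step of spermatogenesis, and meiotic spermatocytes and haploid round and elongating spermatids are the most numerous cells. Spermatocytes and spermatids transcribe many genes and long non-coding RNAs that other cells do not. In whole testis, fewer cells of a type and less RNA per cell cannot be told apart. Lists of markers for germ cells and somatic cells were prepared to check the labels, but no gene table at hand paired with the array's identifiers (0 matched). The cell types behind each group were therefore not checked, and probes are named by identifier.

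Values are log2 signals per probe, and a change is the adult mean minus the P7 mean of the same probe. The values span 2.38 to 18.34, from which base 2 was inferred. A probe was called with limma at a Benjamini-Hochberg adjusted p below 0.05 where its means also differed by 1 log2 unit (2-fold) or more. Probes differ in how strongly they bind their target, so signal is used to group probes as dim or bright on the array and not as the abundance of 1 target against another.

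The adult array Ad-1 stood apart from the other adult arrays. Ad-2 and Ad-3 correlated at r = 0.988 across probes, and the SD of their differences was 0.48 on the log2 scale. Ad-1 correlated at 0.947 with Ad-2 and at 0.956 with Ad-3, with SDs of 1.01 and 0.92. The 3 pairs of P7 arrays ran from 0.979 to 0.985, with SDs from 0.50 to 0.60. At least 2-fold differences separated Ad-1 from Ad-2 at 21.6% of probes and from Ad-3 at 18.8%, against 4.27% between Ad-2 and Ad-3. All 9 pairs of a P7 and an adult array, Ad-1 included, lay far lower, from 0.691 to 0.722. The pair of P7-3 and Ad-1 was the highest of these, and Ad-1 correlated at 0.692 and 0.698 with the other P7 arrays.

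Ad-1 deviated from the mean of Ad-2 and Ad-3 in both directions and mostly at dim probes. It was at least 2-fold above that mean at 3300 probes (8.73%) and at least 2-fold below it at 3938 (10.4%). In the dimmest 20% of the probes these shares were 18.4% and 20.5%, and in the brightest 20% 0.582% and 1.51%. What set Ad-1 apart was not tested. The main counts of each comparison are given with and without Ad-1.

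More than 1 in 2 probes differed between P7 and adult testis, and falls outnumbered rises. At all 3 arrays per stage 20210 probes (53.4%) were called. Signal was higher in the adult at 7542 probes (19.9%) and lower at 12668 (33.5%). Rises thus made up 37.3% of the called probes. The median called rise was 2.20 and the median called fall −2.22, so the typical called change was of like size in both directions. The values of the 3 adult arrays did not overlap those of the 3 P7 arrays at 26018 probes (68.8%), with the adult higher at 9720 (25.7%) and lower at 16298 (43.1%). Of the called probes 19533 (96.7%) were among them.

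Without Ad-1 the balance was nearly the same, at 21178 called probes (56.0%). Of these, 8044 (21.3%) were higher in the adult and 13134 (34.7%) lower, so that rises made up 38.0%. In both fits 7187 probes were called higher and 11987 lower. Leaving Ad-1 out lost 355 rises and 681 falls, and gained 857 rises and 1147 falls. No probe (0) was called in opposite directions.

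The calls made without Ad-1 were also looked up in Ad-1. Its change was taken against the same P7 mean that entered those calls, so part of the likeness is built in, and the other adult arrays serve as the comparison. The 8044 probes called higher without it had a median change of 2.23 in the remaining adult arrays and 1.99 in Ad-1. Ad-1 lay on the same side of P7 at 91.7% of them and showed less than 0.5 times the change at 16.2%. For the 13134 probes called lower the medians were −2.18 and −2.13, with 94.8% on the same side and 14.5% below 0.5 times the change. When Ad-2 or Ad-3 was left out in its place, the left-out array shared the direction of at least 99.1% of the calls.

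The lead of the falls depended in part on how the arrays were scaled. Array medians were at least 7.98 at P7 and at most 7.80 in the adult, and between 2.16% and 4.13% of the adult values lay below 4, against 0.151% to 0.621% at P7. Over all probes the median change was −0.36 as deposited and −0.38 without Ad-1. It was −0.17 once array medians were set equal and −0.04 once the deposited values were quantile normalized again. Falls still outnumbered rises under both rescalings, with 8505 rises and 11343 falls after centring and 8866 rises and 10675 falls after quantile normalization. The share of rises among called probes was then 42.9% and 45.4%. None of these values measures the total RNA of a sample.

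**Figure D1:**
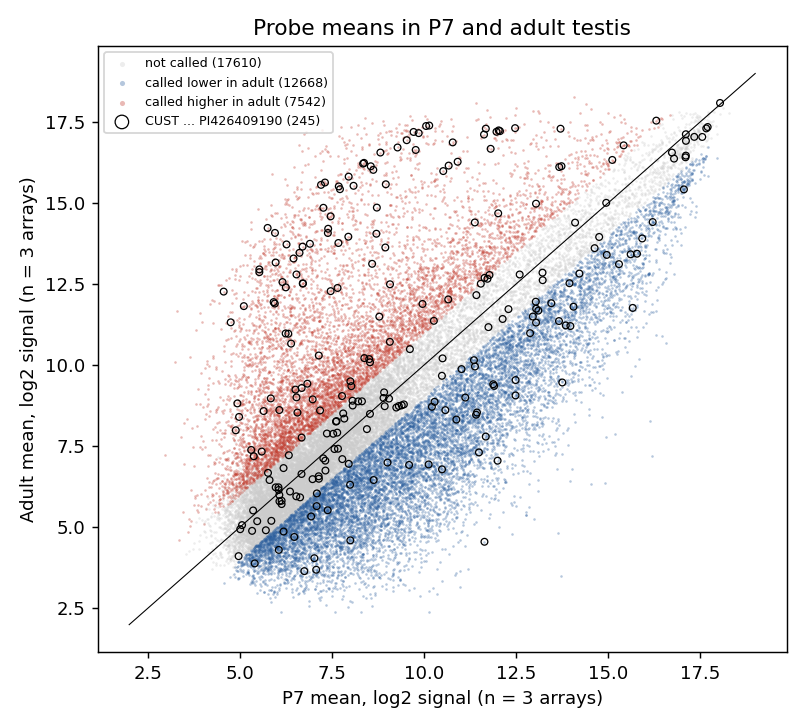
Each point is 1 of the 37820 probes, with the mean log2 signal of the 3 P7 arrays on the x axis and of the 3 adult arrays on the y axis. Red points were called higher in the adult (7542), blue points lower (12668) and grey points not called (17610); the line marks equal means, and black rings mark the 245 CUST probes with the code PI426409190, many of which lie far above the line.

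The balance turned with the size of the change. Changes of at least 8-fold comprised 2540 rises (6.72% of all probes) and 3619 falls (9.57%). At 16-fold or more there were 1723 rises and 1412 falls. At 32-fold or more there were 1173 rises and 412 falls, so that rises made up 74.0%. At 64-fold or more the counts were 771 and 82, at 128-fold or more 439 and 29, and at 256-fold or more 157 and 5.

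The turn held without Ad-1 and under both rescalings. Without Ad-1, 2715 probes (7.18%) rose and 3594 (9.5%) fell by at least 8-fold, and 1756 rose and 1428 fell by at least 16-fold. At 32-fold or more the counts without Ad-1 were 1172 and 405, at 64-fold 758 and 96, at 128-fold 431 and 25, and at 256-fold 146 and 4. After quantile normalization again, 2770 rises and 2815 falls reached 8-fold, and 1851 and 976 reached 16-fold. With centred arrays the counts at 8-fold were 2773 and 3079, and at 16-fold 1843 and 1158. Falls reached the low end of the scale more often than rises started from it. The lower of the 2 stage means was under 6.53, the upper bound of the dimmest 25% of probes, for 33.0% of the called rises and 42.5% of the called falls, and under 4 for 38 rises and 694 falls. The part of that low end in the balance of large changes was not tested.

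**Figure D2:**
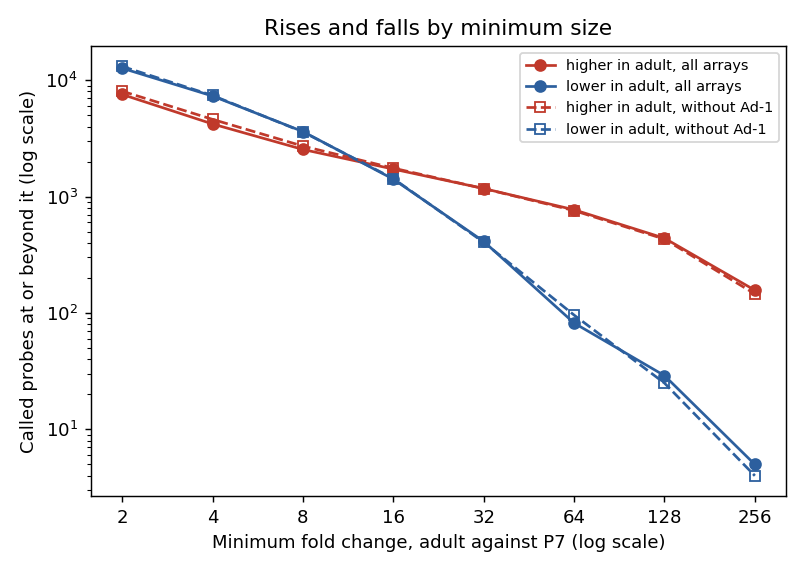
Number of called probes (y axis, log scale) that rose or fell by at least the fold change on the x axis (log scale), for all 6 arrays (filled circles, solid lines) and without Ad-1 (open squares, dashed lines). Falls lead up to 8-fold (3619 against 2540) and rises lead from 16-fold (1723 against 1412), with nearly the same curves without Ad-1.

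The shares called differed between groups of probes of unlike signal. The probes were split into 5 equal groups by their mean signal over the 18 arrays. From the dimmest to the brightest group, 33.6%, 44.4%, 52.2%, 68.2% and 68.8% of the probes were called. The values by group include Ad-1, which deviated mostly at dim probes, and were not recomputed without it. The share called lower went from 21.8% in the dimmest group to 49.6% in the brightest. The share called higher was 11.8% in the dimmest group, 26.4% in the fourth and 19.3% in the brightest. The median change was −0.31 in the dimmest group, −0.13 in the middle one and −0.99 in the brightest. Only 3 of the 18 arrays behind the grouping are adult. A probe low only in the adult is therefore sorted as brighter than one high only in the adult. Part of the excess of falls among bright probes may thus be built into the grouping, which was not tested.

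The largest rise between the stages was at ASMM9PARTA042395. Its log2 signals were 6.65, 6.74 and 6.82 in P7-1 to P7-3, and 17.10, 17.17 and 17.16 in Ad-1 to Ad-3. This probe and the other named probes below were picked for the largest changes among called probes whose groups did not overlap. Groups that lie apart and an adjusted p below 0.05 were thus fixed by this choice. They add no evidence for any named probe. At ASMM9PARTA042395 all 3 adult arrays were high and close together (SD 0.04). The change was 10.41 (SE 0.37, limma adjusted p = 2.10e-12), and 10.43 without Ad-1. The SE draws on the spread at all stages, which was smaller at P7 (SD 0.09) and in the adult than at E12.5 or P21. Its signal did not climb steadily with age. The stage mean was 10.64 ± 0.94 (SD, n = 3 here and below) at E12.5, 8.15 ± 0.28 at E15.5, 2.94 ± 0.16 at P14 and 6.36 ± 0.58 at P21, so most of the rise lay between P21 and adult.

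The probe with the largest rise among lincRNA identifiers was MM9LINCRNAEXON12023-_P1. LincRNAs are long intergenic non-coding RNAs, transcripts from between protein-coding genes. Its signals were 5.35, 5.05 and 5.21 at P7, and 14.10, 13.55 and 13.86 in Ad-1 to Ad-3. The P7 arrays were all low and the adult arrays all high. It rose by 8.63 (SE 0.43, limma adjusted p = 7.89e-11), and by 8.50 without Ad-1. P7 was its lowest stage (mean 5.20), with 6.06 ± 0.90 at E12.5 and 7.45 ± 0.28 at E15.5 before it. At P14 its mean was 6.77 ± 0.19 and at P21 8.50 ± 0.92.

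The largest fall was at ASMM9PARTA023402. It gave 13.60, 13.79 and 13.79 at P7, and 3.16, 3.39 and 3.94 in Ad-1 to Ad-3. The adult values lay near the bottom of the scale in all 3 arrays, where no limit of detection is given. It fell by 10.23 (SE 0.61, limma adjusted p = 6.96e-10), and without Ad-1 it fell by 10.06. The spread at E12.5 (SD 1.86) enters this SE. Its mean was 13.48 ± 0.27 at E15.5, already as high as at P7 (13.73 ± 0.11), and it fell through 9.53 ± 0.14 at P14 and 7.37 ± 0.53 at P21 to 3.50 ± 0.40 in the adult.

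Among lincRNA identifiers the largest fall was at MM9LINCRNAEXON11355-_P1. Its signals were 16.09, 16.20 and 16.13 at P7, and 8.48, 7.88 and 8.51 in Ad-1 to Ad-3. The P7 arrays were high and close together, and the adult arrays were all low. It fell by 7.85 (SE 0.52, limma adjusted p = 2.38e-09), and without Ad-1 it fell by 7.95. P7 was its highest stage, with 12.42 ± 0.02 at E15.5 before it and 14.85 ± 0.05 at P14 after it.

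**Figure D3:**
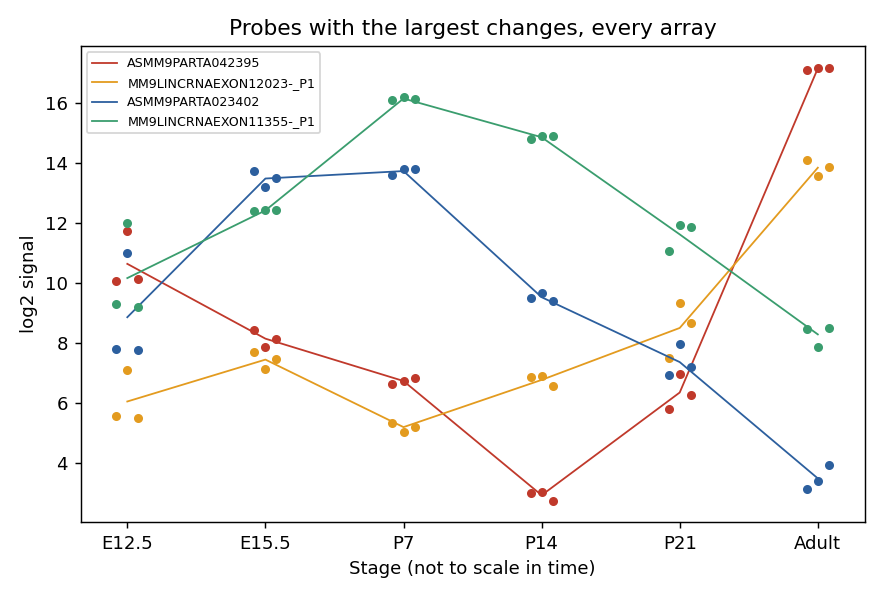
The log2 signal (y axis) of the 4 named probes in every array of the 6 stages (x axis, not to scale in time), with points for arrays and lines through the stage means of 3 arrays. The adult and P7 points of each probe lie far apart, which the choice of the probes required. ASMM9PARTA042395 drops to 2.94 at P14 before it reaches 17.14 in the adult.

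The probes were sorted into 4 families by the text of the identifier. ASMM9PARTA followed by a number made up 34232 probes, identifiers with lincRNA in them 2480, sequence accessions 581 and CUST identifiers 527. What the prefixes stand for, and which of the ASMM9PARTA probes measure mRNAs, is not given in the sources used here. ASMM9PARTA, which holds most of the probes, had 6905 called higher (20.2%, against 19.9% of all probes) and 11920 called lower (34.8%, against 33.5%), so its shares were near those of the whole. Without Ad-1 these were 7305 and 12309. Of its changes 2417 rises and 3482 falls reached 8-fold, and 2554 and 3457 without Ad-1.

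A smaller share of the lincRNA probes was called, with 415 higher (16.7%) and 479 lower (19.3%), against 19.9% and 33.5% of all probes. Their median change was −0.13, above that of all probes (−0.36). Without Ad-1, 481 were higher and 550 lower. The order of rises and falls in this family rested on the scaling, since 533 rose and 320 fell after quantile normalization and 493 rose and 395 fell with centred arrays. Rises made up 46.4% of the family's called probes in the deposited values, 62.5% after quantile normalization and 55.5% with centred arrays. Changes of at least 8-fold were less frequent than over all probes, at 32 rises (1.29%, against 6.72%) and 90 falls (3.63%, against 9.57%). The number of large rises depended on Ad-1 and was 61 without it. By mean signal 39.6% of its probes lay in the dimmest 25% of the array. Within groups of probes by signal its share of calls, set against that of ASMM9PARTA, was 24.3% against 35.1% in the dimmest group, 34.7% against 53.7% in the middle one and 65.5% against 68.9% in the brightest. These shares carry no test.

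The lincRNA identifiers come in 3 kinds of text. The 1840 MM9LINCRNAEXON probes had 314 rises (17.1%) and 433 falls (23.5%), and without Ad-1 353 and 477. They made up 1840 of the family's 2480 probes and held 89 of its 90 large falls. The 394 humanlincRNA probes had 65 rises (16.5%) and 26 falls (6.6%). The 246 mouselincRNA probes had 36 rises (14.6%) and 20 falls (8.13%). Without Ad-1 the humanlincRNA counts were 77 and 44 and the mouselincRNA counts 51 and 29, so the number of humanlincRNA falls depended on Ad-1. The median change over all probes of a kind was −0.18, −0.08 and −0.06 in this order, and each turned positive under both rescalings. Without Ad-1 the medians were −0.19, 0.01 and 0.06. With centred arrays the MM9LINCRNAEXON median was 0.19 over probes with a plus in the identifier and −0.16 over those with a minus. The share of rises among called probes moved from 42.0% to 56.3% after quantile normalization for MM9LINCRNAEXON, from 71.4% to 95.3% for humanlincRNA and from 64.3% to 94.1% for mouselincRNA. With centred arrays these shares were 50.2%, 85.7% and 80.7%.

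Many lincRNA numbers carry a plus and a minus probe. Of 625 such pairs, in a family with 36% of its probes called, both probes rose in 31, both fell in 40 and they moved in opposite directions in 25. A single probe of the pair was called in 262 pairs and neither in 267. Without Ad-1 the counts were 30, 44, 34, 293 and 224. What plus and minus stand for is not given in the sources used here.

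Sequence accessions had 86 rises (14.8%, against 19.9% of all probes) and 150 falls (25.8%, against 33.5%), and 109 and 155 without Ad-1. The 65 accessions that begin with AK had 29 falls (44.6%), 6 rises (9.23%) and a median change of −0.89. Without Ad-1 they had 29 falls and 9 rises, and falls led under both rescalings (25 against 8 and 28 against 7). The other 516 accessions had 80 rises and 121 falls, 100 and 126 without Ad-1, and 110 and 84 after quantile normalization. Over all accessions the share of rises among called probes was 36.4% in the deposited values, 52.0% after quantile normalization and 46.8% with centred arrays.

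CUST identifiers end in 1 of 2 codes. The 282 probes with the code PI426073487 had 31 rises (11%) and 60 falls (21.3%), against 19.9% and 33.5% of all probes, and 1 rise and 11 falls reached 8-fold. Without Ad-1 they had 40 rises and 63 falls, of which 5 rises and 9 falls reached 8-fold. Rises made up 34.1% of their calls, 44.9% with centred arrays and 54.7% after quantile normalization. The CUST probes of both codes had 136 rises and 119 falls, and 149 and 120 without Ad-1. Rises made up 53.3% of the CUST calls, 59.8% with centred arrays and 63.7% after quantile normalization.

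The 245 CUST probes with the code PI426409190 held a block of very large rises. Of these, 105 rose (42.9%, against 19.9% of all probes) and 59 fell (24.1%, against 33.5%). The median called rise was 5.35, against 2.20 over all called rises, and 73 probes (29.8%) rose by at least 8-fold, against 6.72% of all probes. Falls of at least 8-fold numbered 12 (4.90%), against 9.57% of all probes and 3.90% of the CUST probes with the other code. Without Ad-1 there were 109 rises and 57 falls, with 73 and 13 of at least 8-fold. The rises also led under both rescalings, at 111 against 51 after quantile normalization and 110 against 52 with centred arrays. The median change over all 245 probes was 0.51, and it stayed positive under both (0.74 and 0.70). The set was singled out after its values were seen, and the counts carry no test.

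Many probes of this set had nearly the same course as another, and whether they measure the same target is not known here. When probes whose courses over the 18 arrays differed by less than 0.5 on the log2 scale on average were joined, 134 distinct courses remained of 245 probes. The other families were not grouped in this way. Counting 1 probe per course, 67 rose (50.0%) and 34 fell, and 45 (33.6%) rose by at least 8-fold. The 73 large risers themselves formed 45 distinct courses.

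**Figure D4:**
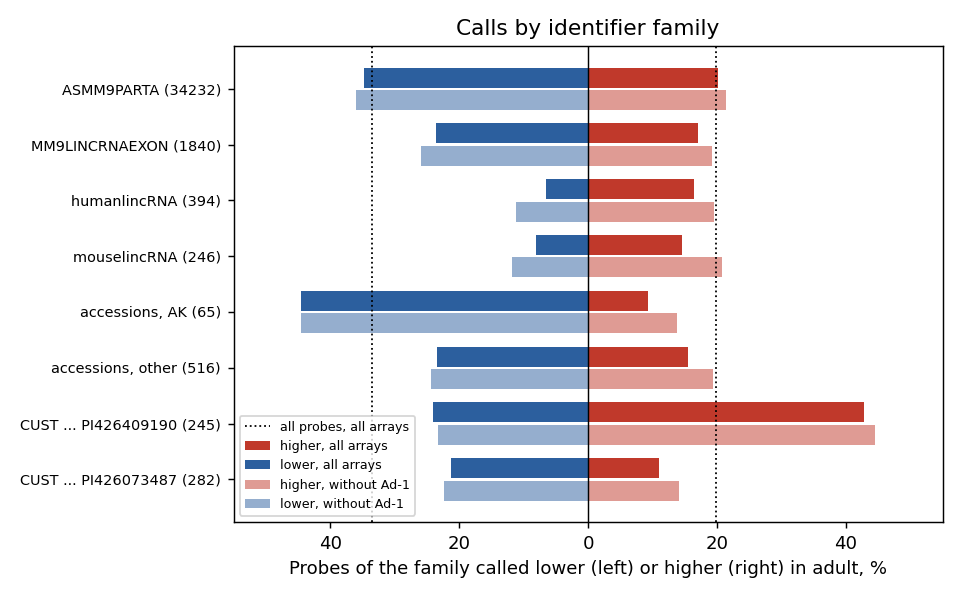
Percent of the probes of each kind of identifier (number of probes in brackets) called lower in the adult (left, blue) or higher (right, red), with pale bars for the fit without Ad-1. Dotted lines mark the shares over all 37820 probes, 33.5% lower and 19.9% higher; the CUST probes with the code PI426409190 reach 42.9% higher, and accessions that begin with AK reach 44.6% lower.

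The stages between P7 and adult showed when the called changes arose. Both ends of each course were fixed by the call, so only the path between them is described, and it carries no test. Among the 7542 rises the median of the stage means was 7.48 at P7 and 7.99 at P14, and it reached 9.25 at P21 and 10.58 in the adult. The share of its change that a probe had already made was 19.8% at P14 and 62.3% at P21 in the median over probes. Among the 12668 falls the medians were 9.76, 9.38, 8.23 and 7.08, and the median shares were 15.1% at P14 and 52.3% at P21. Most of the change in either direction thus came after P14.

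For rises, the interval that most often held the largest step depended on 1 array at P21. The largest step of a rise lay between P7 and P14 for 1972 probes, between P14 and P21 for 2560 and after P21 for 3010. Without P21-1 the counts were 2041, 2892 and 2609, which turns the order of the last intervals. For falls they were 1869, 4012 and 6787, and without P21-1 1566, 5285 and 5817, so that the last interval led in both. Without Ad-1 the last interval led for both, with 3235 rises and 6794 falls.

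The adult marked an extreme of all 6 stages for most called probes. The call asks for a difference of at least 2-fold between adult and P7, which itself favours this. Shares over all probes were not computed. Adult signal was the highest of the series for 5929 (78.6%) of the rises and the lowest for 11277 (89.0%) of the falls. P7 was less often the other extreme, being the highest stage for 2579 falls (20.4%) and the lowest for 985 rises (13.1%). The fetal means at both E12.5 and E15.5 were within 2-fold of the P7 mean for 59.4% of the rises and 59.2% of the falls. The E12.5 means include array E12.5-2. Its mean correlation was 0.931 with the other E12.5 arrays, 0.953 with E15.5 and 0.945 with P7. Without it the median E12.5 mean was 7.21 and not 7.35 over the rises, and 9.89 and not 9.81 over the falls. The shares in this paragraph were not recomputed without it.

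The paths of the large rises and of the lincRNA rises are set side by side, with no test between them. These sets differ in their minimum change as well as in family. For each probe the share of its change present at a stage was computed, and medians over probes are given. Over the 2540 rises of at least 8-fold the median share was 3.95% at P14 and 60.2% at P21. Over all 7542 rises, called from 2-fold like the lincRNA rises, it was 19.8% and 62.3%. At P14 it was 18.5% for ASMM9PARTA rises and 40.2% for accession rises. For CUST rises it was 49.7% with the code PI426073487 and −13.2% with PI426409190. Over the 415 lincRNA rises, of which 32 reached 8-fold, the median share was 42.4% at P14 and 60.8% at P21. The largest step lay between P7 and P14 for 183 of them (44.1%), between P14 and P21 for 59 and between P21 and adult for 173. Without Ad-1 the first and last counts were 158 and 204, and without P21-1 they were 193 and 126, so their order rested on those arrays. The lincRNA rises also had the wider spread within P7, with a median SD of 0.33 against 0.24 over all rises, and the part of that spread in the early steps was not tested. Of the 479 lincRNA falls, 327 (68.3%) had their largest step between P21 and adult.

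The 73 large risers of the PI426409190 set dipped before a steep rise. Their median stage mean was 7.97 (7.58 without E12.5-2) and 8.08 at the fetal stages E12.5 and E15.5, and 7.68 at P7. It was 6.35 at P14, rose to 12.34 at P21 and reached 14.21 in the adult. Of the 73 probes, 43 lay in groups with nearly the same course, so the counts below repeat some courses. Signal at P14 was below that at P7 for 55 of the 73 (75.3%), against 43.7% of all 2540 rises of at least 8-fold. The largest step lay between P14 and P21 for 60 (82.2%, against 45.2%), and for 61 without P21-1. The adult was the highest stage for 68 of the 73 (93.2%, against 83.5%), which the call favours in both sets. As background, late spermatocytes and the first round spermatids appear in the mouse testis between P14 and P21, and what the probes measure is not known here.

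**Figure D5:**
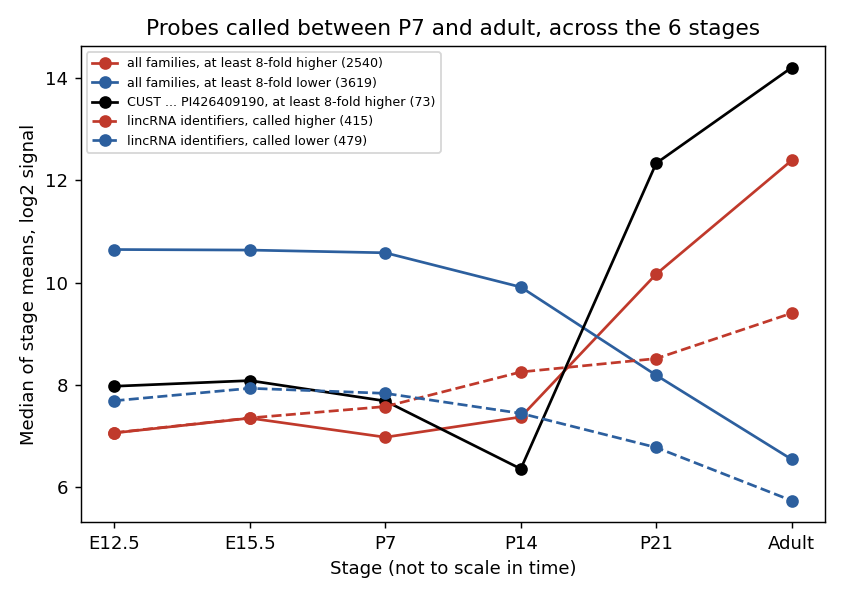
Median over probes of the stage means (y axis, log2 signal) at the 6 stages (x axis, not to scale in time) for sets called between P7 and adult, with the number of probes in brackets. The 73 large risers of the CUST set with the code PI426409190 (black) dip to 6.35 at P14 and reach 12.34 at P21. The lincRNA rises (dashed red), called from 2-fold and not from 8-fold, go from 7.57 at P7 to 9.40 in the adult.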

How the data were processed

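Cy3 signal was measured in whole testis of 6 stages. The authors deposited a single log2 value for each probe in each array, and base 2 is inferred here. How these values were normalized and how probes were filtered is not given in the sources used here. Agilent Feature Extraction 11.0.1.1 read the images, per the submitters' processing notes. No scanner file or detection flag was used, so presence or absence of a probe's target was not called. The number of arrays limits the precision. Nothing was rescaled for the main results.

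Groups came from the titles. All 18 arrays were fitted in limma 3.58.1 (R 4.3.3) with 1 mean per stage and no covariate, and adult minus P7 was tested with the default prior (12 residual degrees of freedom, 3.20 from the prior), two-sided, with Benjamini-Hochberg adjustment over all 37820 probes. The steps were tested on simulated data. Counts, medians and stage courses were computed in pandas 2.3.3 and figures drawn in matplotlib 3.10.9. Named probes were the largest rise and the largest fall over all families and among lincRNA identifiers, within called probes whose groups did not overlap. The comparison, families, rules and tests were chosen with earlier results of these data known; the kinds within families were split after the identifiers and values had been seen. Marker lists of testis cell types were not tested, since 0 identifiers matched the gene tables. Alternatives covered the arrays fitted, weights, prior, scaling, a filter on dim probes and the thresholds.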

Additional observations from a re-analysis of the deposited data

How the results depend on the processing

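Of 302 recomputed values 291 stayed like the main fit. For counts this meant within 1.5 times, and for the changes of the 4 named probes the same direction and side of the threshold. Only the named probes, picked for the largest changes, could be scored as reversed, and 0 were. A turn in the order of rises and falls was not scored. The lincRNA counts (415 rises, 479 falls) turned to 533 and 320 after quantile normalization, and to 493 and 395 with centred arrays. The other 11 were counts. Under limma's treat, which tests whether a change exceeds 2-fold, 13088 probes were called, 4668 higher and 8420 lower, with 4370 ASMM9PARTA rises, 155 lincRNA rises and 245 falls, 42 accession rises and 83 falls, and 70 CUST falls. Without the dimmest 25% of probes, 313 lincRNA falls were left, fewer probes being tested. With quantile normalization again and without Ad-1, an alternative chosen after seeing the data, 135 accession probes rose; the cause was not tested. Leaving out 1 array of either stage gave 19354 to 21178 called probes. The fit of the 6 arrays alone called 19565, and an adjusted p below 0.01 called 18581. With the replicate block 20378 were called, 7622 higher and 12756 lower. Deviations of same-numbered P7 and adult arrays correlated at −0.17, 0.19 and −0.37. Deviations within a stage are tied to each other, so these values cannot decide on pairing. The numbers were not taken to pair the samples. The 4 named probes kept their calls under each alternative tried; the largest rise ran from 10.36 to 10.60 and the largest fall from −10.45 to −9.36. The 26 humanlincRNA falls became 4 after quantile normalization, 12 with centred arrays, 5 without the dimmest 25% and 64 with no minimum change; their rises of at least 8-fold were 5 with all arrays, 14 without Ad-1 and 10 without P7-2. Ad-1 differed most often from the other adult arrays at dim probes, which limits what can be said of a single rise or fall there.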

Other observations

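Probes of the MM9LINCRNAEXON kind carry a plus or a minus sign in the identifier, and the falls from P7 to adult were uneven between the signs. Of 1001 minus probes 298 (29.8%) fell and 152 (15.2%) rose. Of 839 plus probes 135 (16.1%) fell and 162 (19.3%) rose. Over all probes of the array 33.5% fell and 19.9% rose, so falls were less frequent than that among probes of either sign. Without Ad-1, 32.1% of the minus and 18.6% of the plus probes fell, and after quantile normalization again 22.6% and 10.4%. Among 509 numbers with a probe of each sign, the minus probe alone fell in 100 and the plus probe alone in 43, while the minus probe alone rose in 50 and the plus probe alone in 79. When the identifiers were cut into 22 blocks of 100 consecutive numbers, the share of falls was higher among minus probes in 21. Of the humanlincRNA probes, 16 of 197 minus and 10 of 197 plus probes fell, and of the mouselincRNA probes 10 of each sign. The split was noticed in these data and carries no test, and the meaning of the sign is not given in the sources used here.

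Array P7-3 and array Ad-1 deviated from the other arrays of their stages in a like direction, with r = 0.39 between their deviations across probes. The remaining 8 pairs of a P7 and an adult array ran from −0.37 to 0.28. The deviations of the 3 arrays of a stage are tied to each other, so these pairs are no independent comparison. What they share was not tested.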
